A study of Mus musculus with 10 samples.

Results

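The genes followed here in the lungs of young mice belong to the natriuretic peptide system: the receptors Npr1, Npr2 and Npr3, and Nppc, which encodes the precursor of C-type natriuretic peptide. They were taken by gene name from a table of 54532 genes, and all 4 were found. The table holds whole-lung expression in 10 wild-type C57BL/6J mice at postnatal day 30, after an operation at day 7. In 5 mice, the increased pulmonary flow (IPF) group, the abdominal aorta was punctured through into the inferior vena cava to make an aortocaval fistula. The 5 sham mice had the same laparotomy without the puncture. Values are FPKM, read fragments scaled to the length of the gene and the depth of the sample. Being per length, they are set side by side between genes below. Such comparisons hold only as far as the reads of each gene were counted alike, which is not known here. Differences between the groups were tested by limma on log2(FPKM + 0.1) in 20448 genes with a mean of at least 0.1 FPKM, and a gene was called at a Benjamini-Hochberg adjusted p under 0.05. Since the whole lung was measured, fewer cells of a type and less RNA per cell cannot be told apart.

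Natriuretic peptides are hormones and local signals that relax vessels, limit growth of vascular smooth muscle and promote salt loss. Atrial and B-type peptide act on Npr1, and C-type peptide acts on Npr2. Both receptors are membrane guanylyl cyclases that make cGMP, the messenger that activates cGMP-dependent kinases and is broken down by phosphodiesterases. Npr3 has no cyclase domain, takes up all 3 peptides for degradation and can couple to inhibitory G proteins. In the lung this system is known for its part in keeping vascular tone low.

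The deposited values corresponded to 15483046 to 19026843 reads per sample. The alveolar markers Sftpc (surfactant protein C, 9437 to 16514 FPKM) and Ager (706 to 924 FPKM in IPF, 839 to 935 FPKM in sham) were high in all 10 samples. Sham replicate 1 stood apart, with a mean Spearman correlation of 0.912 to the other 9 samples, against 0.929 to 0.932 for each of those. Its alveolar marker sum was 10785 FPKM against 15255 to 18025 FPKM elsewhere, but this sum is mostly Sftpc. Sftpc was 9437 FPKM in sham replicate 1 and 13689 to 16514 FPKM in the other lungs. Lamp3 was also lowest there, at 154 FPKM, whereas Ager, Hopx, Aqp5 and Rtkn2 lay within the range of the other lungs. Transcripts of the sex chromosomes also separated the groups. Xist was 26.8 to 43.2 FPKM in IPF and at most 0.0767 FPKM in sham, whereas Ddx3y was 0 FPKM in IPF and 14.3 to 21.4 FPKM in sham. All 11 clock genes listed passed the test, 3 higher and 8 lower in IPF, and their summed level was 64.4 to 133 FPKM in IPF and 259 to 311 FPKM in sham. The operation, the sex of the mice and the state of the clock therefore cannot be told apart in any difference below.

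The regions around the starts of the 2 cyclase receptor genes are shown because the ratio of these receptors did not overlap between the groups. The same held for 6.13% of the ratios of all 20448 genes to Npr2. Each run of 300 bases covers 250 bases before and 50 after the RefSeq start on GRCm38.p6, 5′ to 3′ on the strand of the gene. Npr1 lies on the minus strand, at chr3:90465817-90466116, and Npr2 on the plus strand, at chr4:43631685-43631984. Capitals mark the motif GGGCGG, the box bound by Sp factors, the motif CCAAT, and the motif TATAAA, each read on either strand.
Npr1: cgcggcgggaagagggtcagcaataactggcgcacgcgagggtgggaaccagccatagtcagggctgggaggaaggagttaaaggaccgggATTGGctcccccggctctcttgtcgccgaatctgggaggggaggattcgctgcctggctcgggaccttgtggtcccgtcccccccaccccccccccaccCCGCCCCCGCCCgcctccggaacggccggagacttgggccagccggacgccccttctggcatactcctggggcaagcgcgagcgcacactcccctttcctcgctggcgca
Npr2: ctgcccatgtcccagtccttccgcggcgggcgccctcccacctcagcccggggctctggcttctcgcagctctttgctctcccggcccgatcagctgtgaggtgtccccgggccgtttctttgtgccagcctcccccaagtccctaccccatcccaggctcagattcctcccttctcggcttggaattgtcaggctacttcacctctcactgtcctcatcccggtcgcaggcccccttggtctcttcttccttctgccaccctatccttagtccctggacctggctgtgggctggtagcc
The Npr1 run had a GC content of 69.7% and held 26 CG pairs, 2 adjacent matches to GGGCGG, on the opposite strand, and 1 match to CCAAT. Neither the Npr2 run, with a GC content of 64.0% and 13 CG pairs, nor the Npr1 run held TATAAA. The Nppc run had a GC content of 69.3%, a TATAAA box 29 bases before the start and 1 match each to GGGCGG and CCAAT, whereas the Npr3 run had a GC content of 39.0% and 1 match to CCAAT. Across 32817 mouse promoters of the same length the median GC content was 52.7%, and TATAAA was found in 13.6%, GGGCGG in 35.6% and CCAAT in 37.4%. CACGTG, the box bound by clock factors, was in 7.15% of all promoters and in none of these 4 runs. At that share absence from 4 runs is the usual outcome, and control by the clock was not tested. The RefSeq start of Npr3 lay 84 bases from the start given with the deposited values.

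Of the 3 members that passed the filter on low values, 0 were called between IPF and sham, where 1196 of 20448 genes (5.85%) were called over the whole table. With an absolute log2 fold change above 1 required as well, 233 genes (1.14%) passed, and again 0 of the 3 members. At an unadjusted p under 0.05, which 3989 genes (19.5%) met, 1 member, Npr1, passed. A voom fit on the recovered reads also called 0 of the 3.

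Nppc was close to the limit of detection. The gene (ENSMUSG00000026241, minus strand, chromosome 1 from 86666291 to 86670571) had 4, 3, 0, 5 and 3 reads in IPF replicates 1 to 5 and 0, 0, 0, 2 and 0 reads in the sham replicates. These correspond to 0.226, 0.173, 0, 0.263 and 0.163 FPKM in IPF and to 0.115 FPKM in sham replicate 4. Reads were thus seen in 4 of 5 IPF lungs and in 1 of 5 sham lungs, and the groups overlapped. A count of 0 allows up to 3 reads, a share of at most 1.94e-05% of the reads of a sample. Summed over a group there were 15 reads of 88878587 in IPF and 2 of 82381085 in sham, a ratio of 6.95 with a 95% exact interval of 1.62 to 62.6 that covers counting error only. On log2(FPKM + 0.1) the difference was 1.06, with a two-sided exact permutation p of 0.0476, unadjusted and for this single gene. The size of this difference is set by the pseudocount, being 0.18 with a pseudocount of 1 and 2.80 with 0.01. In 8 of the 10 analyses that left out 1 sample the p was 0.0794 to 0.0873. When genes were tested without a filter, the limma adjusted p was 0.195. No other gene of the table overlaps Nppc.

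The other ligands were not measurable. Nppa and Nppb, the genes for the atrial and B-type peptides, had 1 read each over all 10 samples, in sham replicate 1 (0.0701 FPKM) and IPF replicate 4 (0.0703 FPKM). Ostn, the gene for osteocrin, a peptide that binds Npr3, had 1 read, in IPF replicate 3. Low values in this table do not show that a gene was silent. Gapdh, a glycolytic enzyme gene with many pseudogene copies, was listed at 0.425 to 0.973 FPKM while Actb, a cytoskeletal actin, was at 620 to 808 FPKM. Nppa overlaps the antisense gene Gm13054, and Pde2a, listed at 0.00195 FPKM, lies with Gm45837 on the same strand. How reads shared by overlapping genes or copies were counted is not given in the sources used here. Gapdh, Actb and Pde2a are named here after their values were seen.

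Npr1, the receptor for atrial and B-type peptide (ENSMUSG00000027931, minus strand, chromosome 3 from 90450591 to 90465866), had the highest mean FPKM of the 3 receptors. Its level was 40.0, 38.1, 37.1, 39.3 and 35.0 FPKM in IPF replicates 1 to 5 and 35.6, 33.9, 32.9, 32.3 and 32.4 FPKM in sham replicates 1 to 5. Replicates 1 to 4 of IPF lay above every sham lung, and IPF replicate 5 lay below sham replicate 1, so the groups overlapped. The means were 37.9 ± 1.98 FPKM (SD, n = 5) in IPF and 33.4 ± 1.39 FPKM (SD, n = 5) in sham. The log2 fold change was 0.18 (SE 0.05, 95% interval 0.06 to 0.30), 13.3% higher in IPF with an interval of 4.54% to 22.8%. The limma adjusted p was 0.0744. The two-sided exact permutation p was 0.0159, unadjusted. The limma adjusted p fell under the threshold without sham replicate 1 (0.0422) or without IPF replicate 5 (0.0283), and when samples were weighted by how well they fit their group (0.0166). Over all alternatives it ranged from 0.0166 to 0.242. IPF replicate 5 also had the highest clock gene sum of the IPF lungs, 133 FPKM against 64.4 to 78.5 FPKM, and the part of this in its Npr1 value was not tested. The size of the change was ordinary for the table, at percentile 51.9 of absolute log2 fold changes.

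Markers of the vessel wall are given beside Npr1 because endothelial and mural cells are known sites of its expression. The summed level of 6 endothelial markers was 727 to 877 FPKM in IPF and 709 to 800 FPKM in sham, and 0 of the 6 passed the test. Of these, 5 had a log2 fold change above 0, with a median of 0.08, up to 0.26 for Tek (limma adjusted p = 0.0636), for which all 5 IPF lungs were above every sham lung. For 6 capillary markers the sums were 612 to 712 FPKM in IPF and 571 to 630 FPKM in sham, and 1, Aplnr, passed (limma adjusted p = 0.0103), at a log2 difference of 0.82. The log2 fold change was above 0 for 4 of these 6 and below 0 for 2, with a median of 0.19. The 5 smooth muscle markers summed to 83.6 to 196 FPKM in IPF and 119 to 153 FPKM in sham, with 0 calls. All 5 had a log2 fold change below 0, with a median of -0.35, and the sums of 4 of 5 IPF lungs lay below every sham lung, the exception being IPF replicate 3. Of 5 pericyte markers 3 had a log2 fold change below 0 and 1 of them passed, Cspg4 (-0.43, limma adjusted p = 0.0173), and their sums were 91.5 to 114 FPKM in IPF and 92.4 to 107 FPKM in sham. None of these lists was at 0 in any sample, and their part in the Npr1 values was not tested.

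Npr2, the receptor for C-type peptide (ENSMUSG00000028469, plus strand, chromosome 4 from 43631935 to 43651244), was the steadiest of the 4 genes. It was at 27.7, 25.6, 25.1, 25.2 and 23.7 FPKM in IPF replicates 1 to 5 and at 27.0, 25.0, 27.0, 25.1 and 24.5 FPKM in sham replicates 1 to 5. The highest and the lowest of the 10 values were both IPF lungs, and the sham values lay between them. The means were 25.5 ± 1.45 FPKM (SD, n = 5) in IPF and 25.7 ± 1.17 FPKM (SD, n = 5) in sham. The log2 fold change was -0.01 (SE 0.05, 95% interval -0.14 to 0.11), and the limma adjusted p was 0.920. In percent the interval runs from -8.98% to 7.62%. The coefficient of variation over the 10 lungs was 4.89%, against 8.02% for Npr1, 19.3% for Npr3 and a median of 18.8% over the genes tested.

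Npr3, the clearance receptor (ENSMUSG00000022206, minus strand, chromosome 15 from 11839896 to 11907287), varied most between IPF lungs among the 3 receptors. Its level was 23.6, 26.0, 37.1, 20.4 and 26.8 FPKM in IPF replicates 1 to 5 and 24.1, 21.0, 23.4, 21.3 and 25.9 FPKM in sham replicates 1 to 5. IPF replicate 3 was the highest and IPF replicate 4 the lowest of the 10, and the groups overlapped. The means were 26.8 ± 6.31 FPKM (SD, n = 5) in IPF and 23.1 ± 2.01 FPKM (SD, n = 5) in sham. The log2 fold change was 0.19 (SE 0.13, 95% interval -0.11 to 0.48) with a limma adjusted p of 0.497. It was 0.06 without IPF replicate 3 and 0.28 without IPF replicate 4. IPF replicate 3 also had the highest summed markers of smooth muscle (196 FPKM, against 83.6 to 153 FPKM in the other lungs) and fibroblasts (284 FPKM). The same held for ciliated airway cells (212 FPKM, against 204 FPKM in sham replicate 4) and capillaries (712 FPKM). Its sums were the lowest for red blood cells (276 FPKM) and pericytes (91.5 FPKM). These sums follow their most abundant genes, and single markers differed. IPF replicate 3 was highest for Col1a1 (137 FPKM) and Dcn (29.5 FPKM) but lowest for Tcf21 (44.1 FPKM). Its Tppp3 (176 FPKM) was below that of sham replicate 3 (184 FPKM), and its Myh11 (23.1 FPKM) below that of sham replicate 1 (24.6 FPKM). The part of these markers in the Npr3 value was not tested.

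**Figure D1:**
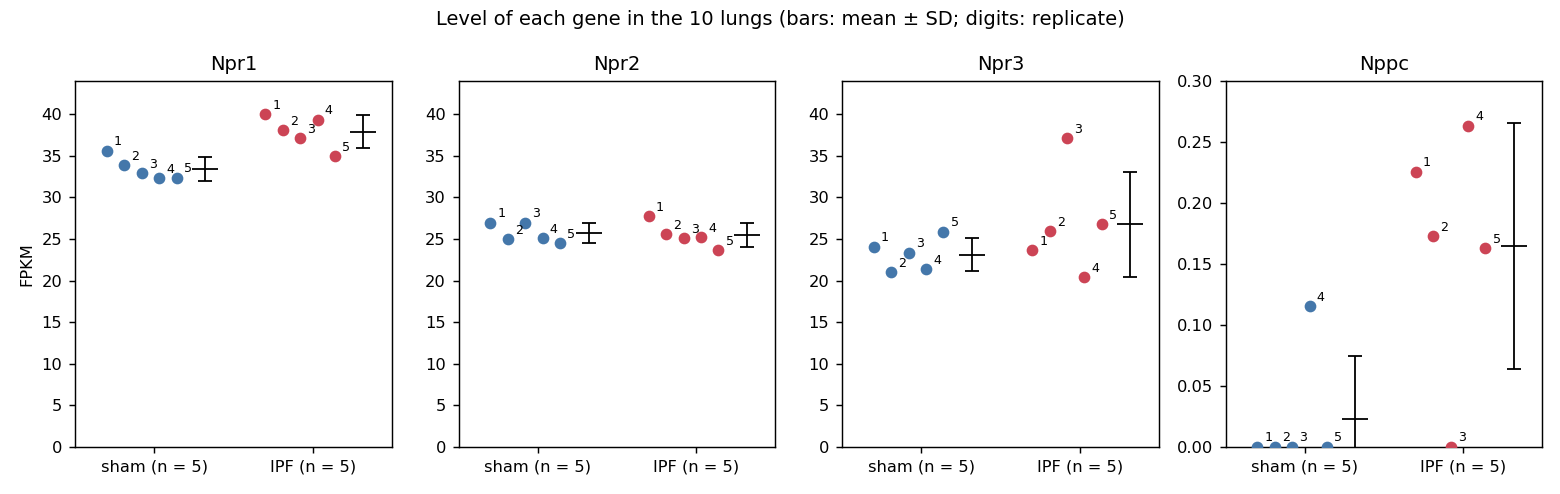
Level of Npr1, Npr2, Npr3 and Nppc in FPKM (vertical axes, with a separate scale for Nppc) in each of 5 sham and 5 IPF lungs; points are lungs, digits are replicate numbers and bars are mean ± SD. Npr1 was above every sham lung in 4 of 5 IPF lungs, Npr2 overlapped throughout, 1 IPF lung stood high for Npr3 at 37.1 FPKM, and Nppc stayed at or below 0.263 FPKM.

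Each receptor gene overlaps a second gene of the table. Npr1 overlaps Gm16048 on the opposite strand, which had at most 4 reads in a sample, and Npr3 overlaps Gm5144 on the opposite strand near its start, with at most 9 reads. Npr2 overlaps the antisense gene Gm12473, at a mean of 7.15 FPKM and at most 95 reads, beside 1746 to 2217 reads for Npr2 itself. Whether the counting used strand is not given, so reads from such a pair cannot be told apart.

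The balance of the 2 cyclase receptors within each lung separated the groups. The log2 ratio of Npr1 to Npr2 was 0.53, 0.57, 0.56, 0.64 and 0.56 in IPF replicates 1 to 5 and 0.40, 0.44, 0.29, 0.36 and 0.40 in sham replicates 1 to 5. Every IPF lung was above every sham lung, and of the ratios of all 20448 genes to Npr2, 1254 (6.13%) did not overlap between the groups. The means were 0.57 ± 0.04 (SD, n = 5) in IPF and 0.38 ± 0.06 (SD, n = 5) in sham, a difference of 0.20 on the log2 scale. The two-sided exact permutation p was 0.00794, the smallest that 5 against 5 lungs can give, or 0.0238 after adjustment over the 3 receptor pairs. The difference was 0.17 to 0.21 when each lung was left out in turn and 0.20 without sham replicate 1. The ratio rests on the Npr1 and Npr2 values above and adds no further measurement to them.

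The ratios with the clearance receptor did not separate the groups. The log2 ratio of Npr3 to Npr1 was -0.53 ± 0.36 (SD, n = 5) in IPF and -0.53 ± 0.14 (SD, n = 5) in sham, with an exact permutation p of 0.984. For Npr3 to Npr2 the means were 0.04 ± 0.35 in IPF and -0.16 ± 0.13 in sham, a difference of 0.20 with an exact permutation p of 0.302, 0.452 after adjustment over the 3 pairs. The Npr3 to Npr2 difference was 0.07 without IPF replicate 3 and 0.29 without IPF replicate 4. Npr3 made up 29.5% ± 5.22 of the summed receptor level in IPF and 28.1% ± 1.90 in sham (SD, n = 5 each), a difference of 1.41 percentage points with an exact permutation p of 0.627. Without IPF replicate 3 this difference was -0.555 points.

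**Figure D2:**
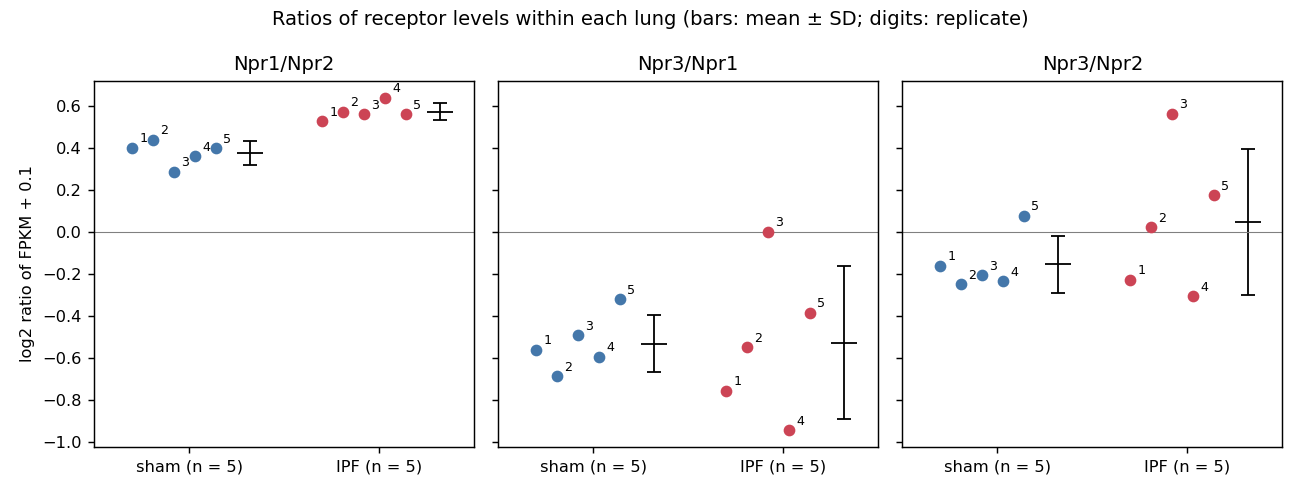
Log2 ratio of FPKM + 0.1 between receptor pairs (vertical axis) within each of 5 sham and 5 IPF lungs; points are lungs, digits are replicate numbers and bars are mean ± SD. The Npr1 to Npr2 ratios of IPF, from 0.53 to 0.64, lay above those of sham, from 0.29 to 0.44, whereas both ratios with Npr3 overlapped.

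Over all 10 lungs the order of the levels was Npr1, Npr2, Npr3 and Nppc. Npr1 was 1.39-fold above Npr2, a log2 ratio of 0.47 ± 0.11 (SD over 10 lungs), higher in 10 of 10 lungs (exact sign-flip permutation p = 0.00195, adjusted p = 0.00293 over 3 neighbours). This test measures how constant the ratio was over lungs. A bias in counting either gene that is the same in all lungs would pass it too. How shared reads were counted is not given, so the order is that of the listed values. Npr2 and Npr3 did not differ beyond their spread, with Npr2 higher in 6 of 10 lungs and a ratio of 1.04-fold (exact permutation p = 0.541). Within IPF the mean of Npr3, 26.8 FPKM, was above that of Npr2, 25.5 FPKM, and within sham it was below. Npr3 was above Nppc in 10 of 10 lungs, by 147-fold on the scale of FPKM + 0.1, a size set by the pseudocount. The log2 ratio was 7.20 with 0.1, 4.55 with a pseudocount of 1 and 9.14 with 0.01. Npr1 stood at percentile 93.3 of the mean levels of the genes tested.

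Other genes of the system were counted against the whole table. Of 37 listed genes for other ligands, peptide processing and breakdown, cGMP signalling and inhibitory G proteins, 29 passed the filter, and 1 (3.45%) was called against 5.85% of all genes. The count depended on the fit, with 7 called where array weights called 1749 genes over the whole table and 3 where voom called 1478. At an unadjusted p under 0.05 there were 8 of 29 (27.6%) against 19.5% of all genes. The log2 fold change was above 0 in 20 and below 0 in 9, with a median of 0.04 against 0.0016 over all genes tested. The groups did not overlap for 2 of the 29 (6.90%), Vasp and Pde1a, against 7.29% of all genes.

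Among the enzymes that process and degrade the peptides, 0 of 5 tested genes were called. Corin, the protease that activates atrial peptide, was low at 0.327 ± 0.183 FPKM in IPF and 0.271 ± 0.0626 FPKM in sham (SD, n = 5 each; limma adjusted p = 0.852). Mme, the gene for neprilysin, which degrades natriuretic peptides, was at 21.1, 19.3, 19.8, 22.7 and 20.3 FPKM in IPF and 17.5, 16.9, 17.9, 17.3 and 19.6 FPKM in sham. Its log2 fold change was 0.21 with a limma adjusted p of 0.0700, and 4 of 5 IPF lungs were above every sham lung. The limma adjusted p of Mme was 0.0324 with array weights and 0.0454 without sham replicate 5. Ide, the gene for insulin-degrading enzyme and named here after its values were seen, lay the other way, at 21.5, 17.0, 20.1, 18.7 and 23.2 FPKM in IPF and 24.7, 24.2, 22.2, 23.3 and 24.2 FPKM in sham. For Ide 4 of 5 IPF lungs were below every sham lung, and limma gave an adjusted p of 0.104 at a log2 fold change of -0.25.

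Of the cGMP machinery, 0 of 2 kinases, 0 of 7 phosphodiesterases and 0 of 4 other guanylyl cyclases tested were called. Prkg1, the main cGMP-dependent kinase of smooth muscle, was at 3.39 ± 0.557 FPKM in IPF and 3.32 ± 0.545 FPKM in sham (SD, n = 5 each; limma adjusted p = 0.939). Prkg2, the other kinase of this kind and named here after its values were seen, was at 9.11, 8.55, 7.26, 8.86 and 7.72 FPKM in IPF and 7.42, 6.56, 5.77, 6.68 and 7.28 FPKM in sham. For Prkg2 4 of 5 IPF lungs were above every sham lung, and limma gave an adjusted p of 0.0764 at a log2 fold change of 0.30. Pde5a, the cGMP-specific phosphodiesterase inhibited by sildenafil, was at 51.4 ± 6.73 FPKM in IPF and 44.6 ± 3.81 FPKM in sham (SD, n = 5 each), higher by 0.20 on the log2 scale at a limma adjusted p of 0.280. Pde1a, a calcium-activated phosphodiesterase named here after its values were seen, was at 1.09, 0.828, 0.897, 1.30 and 1.60 FPKM in IPF and 1.77, 1.65, 1.66, 1.73 and 1.68 FPKM in sham. All 5 IPF lungs were below every sham lung, and limma gave an adjusted p of 0.0649 at a log2 fold change of -0.57. Pde3a and Gucy1a1, also named after their values were seen, lay the other way, with log2 fold changes of 0.26 and 0.31 at limma adjusted p-values of 0.0695 and 0.155, and 4 of 5 IPF lungs above every sham lung for each.

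Of 8 cGMP targets and exporters tested, 1 was called, Vasp, an actin regulator and a classical substrate of cGMP-dependent kinase. Vasp was at 60.1, 58.2, 57.4, 58.1 and 60.3 FPKM in IPF and 45.6, 51.3, 46.5, 55.4 and 50.6 FPKM in sham. Every IPF lung was above every sham lung, higher by 0.24 (SE 0.06) on the log2 scale at a limma adjusted p of 0.0372. The call was lost in 12 of 20 alternatives, among them leaving out sham replicate 1 (adjusted p 0.0552 by limma), and over all 20 the adjusted p ranged from 0.0213 to 0.0925. Vasp overlaps the antisense gene 1700058P15Rik, which had at most 33 reads in a sample. Of the 3 inhibitory G protein genes tested, 0 were called.

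**Figure D3:**
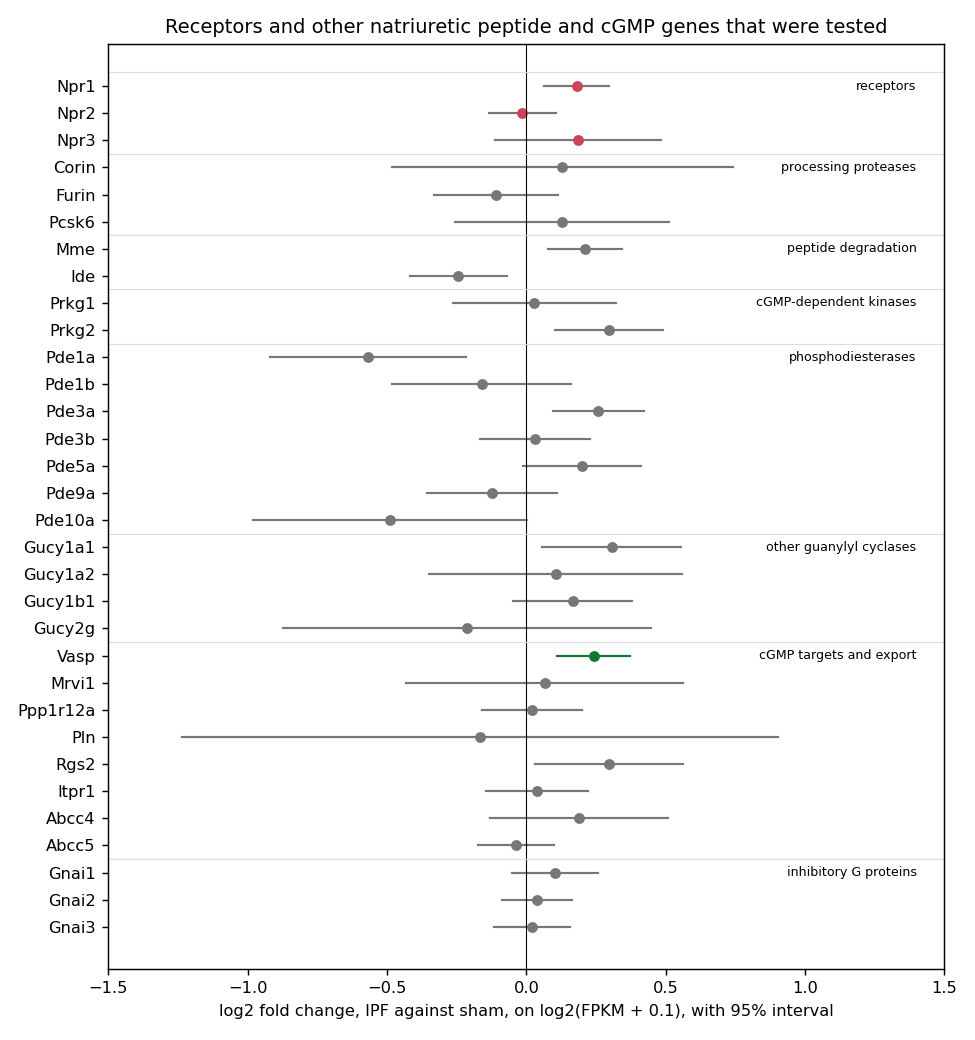
Log2 fold change of IPF against sham on log2(FPKM + 0.1) (horizontal axis) for the 3 receptors (red) and the 29 other genes tested, grouped by role; points are estimates, lines are 95% intervals and the gene called is green. Most intervals cross 0, the Npr1 interval runs from 0.06 to 0.30, and Vasp at 0.24 is the gene past the adjusted threshold.

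The genes whose deviations from the group means were most like those of each receptor were sought among 13444 genes with a mean of at least 1 FPKM. For Npr1 they were Gm20554 (Pearson r = 0.95 over 10 lungs), CT030636.1 (0.94) and Lgals4 (0.93), and without the 2 lungs farthest from the Npr1 median r was 0.88, 0.89 and 0.84. For Npr2 they were Prpf3 (0.94), Ttc38 (0.93) and BC017158 (0.92), with 0.95, 0.89 and 0.83 without 2 lungs. For Npr3 they were Agr3, Ikbkg and Liph (0.90 each), but without IPF replicates 3 and 4 these fell to 0.66, 0.50 and 0.30, so the likeness rests on those lungs. Spearman coefficients were 0.85, 0.95 and 0.88 for the Npr1 genes, 0.95, 0.92 and 0.88 for the Npr2 genes and 0.89, 0.70 and 0.59 for the Npr3 genes. They describe the 10 libraries, share their depth and tissue makeup, and are the highest of many. For Nppc, with 0 to 5 reads a sample, no such genes are given.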

How the data were processed

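Whole-lung mRNA of 5 IPF and 5 sham mice was grouped by the sample titles. The authors deposited FPKM values. The study's methods name Fastp, HISAT2, StringTie, a KAPA kit and the build GRCm39. The labels name Bowtie 0.12.2, a NEBNext kit and the builds GRCm38, mm10 and hg38, the last a human build. Gene positions in the file are on GRCm38, so which of these steps made the table is not settled. Multiplied by gene length, the FPKM of a sample fall on multiples of a single unit, and the number of units was taken as reads. Reads come from libraries without molecular identifiers, so intervals cover counting error only.

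Genes with a mean of at least 0.1 FPKM were fitted with limma 3.58.1 in R 4.3.3 (empirical Bayes with trend, no covariate) on log2(FPKM + 0.1), which understates changes of low genes. Single values were tested by exact permutation over the 252 assignments of 5 of 10 lungs. On simulated data for IPF against sham with a dispersion of 0.03, 199 of 200 genes with a log2 change of 1.5 were recovered among 20448 genes, with 7 false calls. The changed genes were taken from well-counted genes only. Changes as small as those of the receptors were not simulated, so this check does not bear on whether they could be called. The authors used DESeq2; here voom on the recovered reads was the count-based alternative, and DESeq2 was not run.

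The genes and lists were chosen with earlier results of these data known. By the rule set for naming, the genes are the 4 members, pathway genes with an adjusted p under 0.05, Nppa, Nppb, Ostn, Corin, Mme, Prkg1 and Pde5a, and for each member the 3 genes most like it, which are not printed for Nppc because it had 0 to 5 reads a sample. Other genes named are marked in the text as chosen after their values were seen, or belong to a marker list or overlap a named gene. Sex-linked, clock and marker genes are given as values. Alternatives were pseudocounts, filters, scalings, array weights, voom on recovered reads, a replicate block and leaving out each lung. Replicates were compared and none was a copy of another. Labels do not say that samples came from separate litters, so p-values measure the spread between these samples.

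Other marker lists gave these results. Of 5 fibroblast markers 1, Pdgfra, was called (higher, log2 fold change 0.35, limma adjusted p = 0.0212). Calls were 0 of 4 mesothelial, 0 of 6 alveolar, 0 of 4 ciliated, 0 of 6 cardiac, 0 of 2 adipocyte, 0 of 4 neutrophil and 0 of 3 red blood cell markers tested, and of 4 cartilage markers 0 could be tested.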

Additional observations from a re-analysis of the deposited data

Results flagged for a closer look

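Nppc in sham replicate 4, at 0.115 FPKM from 2 reads, stood apart from the other 4 sham lungs, which were all at 0 FPKM. This was the only sample set apart by Dixon's criterion among 20 groups of 5 values, and chance sets apart about 1 group in 20. Both values lie within the limit of 3 reads that a count of 0 allows, so they are not distinguishable at this depth.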

How the results depend on the processing

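With n = 5 lungs a group, the sex and clock genes divide exactly as the groups do, so no alternative bears on them. Depth limits Nppc, with at most 5 reads in a sample. The number of genes called was 748 to 1619 (main value 1196) when 1 lung was left out, moving by over 1.5 times without IPF replicate 2 (788), IPF replicate 4 (748) or sham replicate 3 (797). With the fold limit it was 164 to 303 (main value 233), 74 with a pseudocount of 1 and 154 with a minimum mean of 1 FPKM. The number of members called was 0 to 1 when 1 lung was left out (1 without IPF replicate 5, where 1619 genes were called in all, or sham replicate 1, where 912 were) and 1 with array weights, where 1749 were. The pathway genes called, 1 in the main fit, were 0 to 2 when 1 lung was left out, 0 with no filter, 0 with no variance trend, 7 with array weights and 3 with voom, which called 1478 genes in all. The cause of these shifts was not tested.

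The log2 fold change of Npr1 was 0.16 to 0.21 when 1 lung was left out and 0.21 with array weights, where it was called. That of Npr2 was -0.046 to 0.011 when 1 lung was left out and 0.0080 with array weights, its sign changing around 0. That of Nppc was 0.91 to 1.38 when 1 lung was left out and 1.06 with no filter, where it was not called, and it followed the pseudocount (0.18 with 1 and 2.80 with 0.01). The difference in the Npr3 share was -0.555 to 2.79 points and that of the Npr3 to Npr1 ratio -0.13 to 0.11 when 1 lung was left out. Prkg1 was -0.0027 with quantile normalization and -0.054 to 0.11 when 1 lung was left out, and Corin was -0.092 to 0.23. Npr3, Pde5a and the order of the levels kept their direction and their side of the threshold under each alternative run.

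The deviations of same-numbered lungs had correlations of -0.0204 to 0.0953, none over 0.1, so the numbers were not taken to pair the lungs, although 6 of 10 lungs correlated best with their own number among 5 candidates. With the replicate block 1045 genes and 0 pathway genes were called, Vasp having a limma adjusted p of 0.0681. The Nppc difference of 1.06 (exact permutation p = 0.125) and the Npr1 to Npr2 difference of 0.20 (exact permutation p = 0.0625) then had the smallest p that these pairs can give, so the paired test could not pass the threshold and says nothing about stability.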

Other observations

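The shares of Npr1 and Npr2 and the summed level of the 3 receptors were added after the data were seen. Npr2 made up 28.3% ± 1.98 of the summed level in IPF and 31.3% ± 1.04 in sham (SD, n = 5 each), a difference of -2.95 percentage points (two-sided exact permutation p = 0.0238, adjusted p = 0.0476 over 4 tests). Its own level was 25.5 FPKM in IPF and 25.7 FPKM in sham, so the share restates the levels of the other receptors and is no further measurement. For Npr1 the shares were 42.2% ± 3.34 and 40.6% ± 1.34 (exact permutation p = 0.389). The summed level was 90.1 ± 5.86 FPKM in IPF and 82.3 ± 3.10 FPKM in sham (SD, n = 5 each; exact permutation p = 0.0238, adjusted p = 0.0476 over 4 tests). The sums ran from 84.9 to 99.4 FPKM in IPF and from 78.8 to 86.7 FPKM in sham, so the groups overlapped.

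The neutrophil marker sum was 47.8 to 286 FPKM in IPF and 11.8 to 67.9 FPKM in sham, with a median log2 fold change of 1.17 over 4 genes, of which 0 passed the adjusted test and 3 an unadjusted p under 0.05. The highest value, 286 FPKM, was in IPF replicate 5, the IPF lung with the lowest Npr1.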
